A study of Mus musculus with 12 samples.

Results

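The genes of sphingomyelin and sphingosine metabolism described here are 10 genes chosen by symbol from the 21667 genes with a unique symbol in the deposited RNA-seq table of 3T9 fibroblasts: Smpdl3b, Smpdl3a, Smpd1, Smpd2, Smpd4, Sgms1, Sgms2, Sphk1, Sphk2 and Sgpl1. The cells, 3T9 MycER;YAP, were serum-starved at high confluence before RNA was sequenced. They are immortalized mouse embryonic fibroblasts that constitutively express MycER and carry a doxycycline-inducible YAP S127A vector. MycER is a Myc chimera that 4-hydroxytamoxifen (OHT) switches on, and YAP S127A is a YAP mutant that lacks the serine through which the Hippo kinases hold YAP in the cytoplasm. The 12 libraries fall into 4 groups of 3: OHT (400 nM, MycER active), dox (2 µg/mL, YAP S127A induced), OHT+dox (both), and mock (neither). Every group carries MycER and, by the study's methods, the YAP vector, whereas the sample labels give the genotype as 3T9MycER alone. Vector-free cells given dox and cells without MycER given OHT are not analysed here. YAP S127A and doxycycline itself cannot be told apart, nor can MycER activity and OHT itself. The sources used here do not say whether the cells are 1 clone or the libraries of a group separate cultures. The spread between libraries, on which every p-value rests, may therefore be technical. RNA was taken from bulk cultures, in which fewer cells expressing a gene and less of its RNA per cell cannot be told apart.

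Sphingomyelin is a membrane lipid made of ceramide and a phosphocholine head. Sphingomyelin synthases build it from ceramide, sphingomyelinases cleave it back to ceramide, and ceramidases release sphingosine from ceramide. Sphingosine kinases phosphorylate sphingosine to sphingosine 1-phosphate, a lipid that signals through its own G protein-coupled receptors, and the lyase Sgpl1 degrades it irreversibly, which is the only way out of the sphingolipid pool. Ceramide is commonly associated with growth arrest and cell death, and sphingosine 1-phosphate with survival and proliferation.

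The deposited table gives summaries per comparison rather than values per library. The mean normalized count of each group and its standard error were worked back from the authors' summaries of 3 comparisons with mock. All values after ± are standard errors from the count model of these summaries. The contrasts of OHT, dox and OHT+dox with mock named the genes, with Smpdl3b known beforehand for its response to OHT, so these folds are given as a description and without p-values. Contrasts between treated groups were tested and are given with p-values. For Smpdl3b the contrasts of OHT and OHT+dox with dox are given without one, since the gene was noted for OHT. The tests between treated groups reuse the treated group means of the contrasts with mock. For a gene whose dox level was near mock, the contrasts with dox largely repeat its folds against mock and are no separate support. Of the 10 genes, 9 had values in all groups and were tested among 12257 genes, and Smpdl3a was not. Relative depths, read as DESeq2 size factors from genes with a single read, ranged from 0.814 to 1.13 over the libraries, and read totals are unknown. Of 10 fibroblast markers, 9 were tested, with mock means from 34.6 (Dcn) to 6174 (Col1a2) normalized counts, and Thy1 was nearly absent. Of 13 markers of macrophages, epithelium and endothelium, 12 had an authors' mean of at most 6.04 in the comparison of dox with mock, and Cd68 had 37.4. As a check of the labels, the Myc target Ncl changed by 0.94 ± 0.10 on the log2 scale in OHT cells, 0.45 ± 0.10 in dox cells and 1.05 ± 0.10 in OHT+dox cells relative to mock. The YAP target Ctgf changed by −0.32 ± 0.09, 0.64 ± 0.09 and 0.44 ± 0.09 in the same order. The gene Myc was at −1.15 ± 0.15, 0.75 ± 0.14 and −0.32 ± 0.15, Yap1 at −0.10 ± 0.09, −0.05 ± 0.09 and −0.01 ± 0.09, and Esr1, whose product gives MycER its hormone-binding part, at −0.39 ± 0.24, 0.34 ± 0.23 and −0.17 ± 0.24. The Yap1 value was thus below 0 also in the groups given dox, by less than its standard error. Whether reads of the transgenes count toward Myc, Yap1 and Esr1 is not stated, so these rows do not check the induction of either transgene.

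Smpdl3b, a relative of acid sphingomyelinase that is anchored at the cell surface, had the widest range of levels among these genes. Smpdl3b averaged 711 ± 45.9 normalized counts in OHT cells, 146 ± 11.3 in dox cells and 742 ± 47.7 in OHT+dox cells, against 91.2 ± 7.82 in mock cells. The OHT and OHT+dox groups were within 1 standard error of each other, the dox group lay well below them, and mock was lowest. OHT cells stood 2.96 ± 0.15 above mock on the log2 scale (7.80-fold), dox cells 0.67 ± 0.17 (1.60-fold) and OHT+dox cells 3.02 ± 0.15 (8.13-fold). Among all genes tested this was the 3rd highest fold of OHT, the 190th of dox and the 8th of OHT+dox. Adding dox to OHT gave 0.06 ± 0.13 (95% interval −0.20 to 0.32, adjusted p = 0.888 by the Wald test), so a further change of Smpdl3b was not detectable. The interval still allows a rise by 0.32 or a fall by 0.20 on the log2 scale. Adding OHT to dox gave 2.35 ± 0.15, and OHT alone stood 2.29 ± 0.15 above dox alone. The response to both treatments was 0.61 ± 0.21 smaller than OHT and dox would give added up in log2 units (a departure of −0.61). For Smpdl3b this departure did not pass the Wald test. Its size depends on the folds worked back from the authors' summaries, and it was not recomputed with the folds as deposited. The OHT fold for which the gene was noted enters this departure with a minus sign. Of all genes tested 0% (0 genes) passed the Wald test of the departure, while 132 had an unadjusted p under 0.05. That is fewer than chance alone would give among 12257 genes, and the z-values of the departure had a robust spread of only 0.648. The test was thus conservative, and 0 genes passing does not show that departures were absent.

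**Figure D1:**
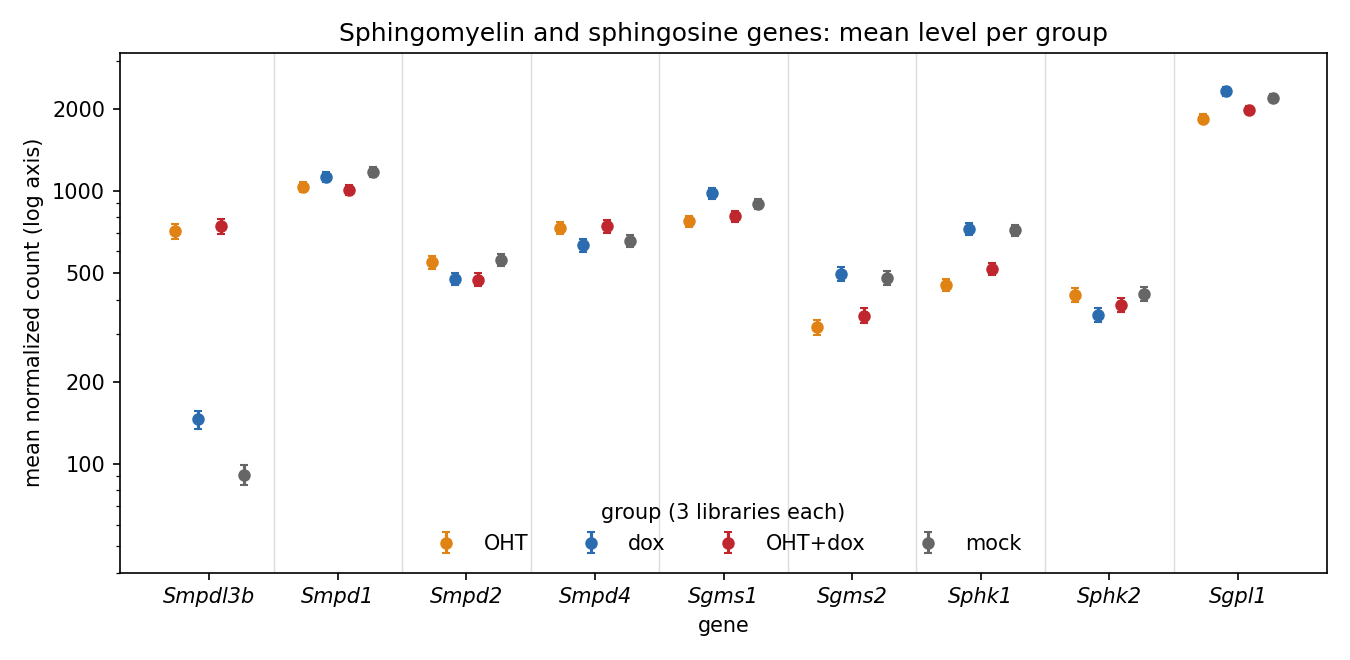
Mean normalized count (y axis, log scale) of the 9 genes with values in OHT, dox, OHT+dox and mock cells (3 libraries each), with bars of 1 standard error from the count model. Smpdl3b sits at 711 and 742 in the OHT and OHT+dox groups and at 146 and 91.2 in the dox and mock groups, whereas the levels of every other gene shown differ far less between groups.

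Per kilobase of exon, Smpdl3b was above Smpd1, the lysosomal acid sphingomyelinase, in the groups with OHT and below it in dox and mock cells. On that scale the level of Smpdl3b was 355 ± 22.9 in OHT cells and 370 ± 23.8 in OHT+dox cells, against 45.5 ± 3.90 in mock cells. Smpd1 was at 311 ± 12.9, 302 ± 12.5 and 352 ± 14.4 per kilobase in the same groups. The ratio of Smpd1 to Smpdl3b per kilobase was therefore 0.877 ± 0.067 in OHT cells, 4.66 ± 0.41 in dox cells and 0.816 ± 0.063 in OHT+dox cells, against 7.74 ± 0.74 in mock cells. This ratio and the later ones per kilobase were not tested. Exon lengths counted all annotated exons of a gene, whether or not they are used in these cells, so the order of genes with close levels is unsure.

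The promoter of Smpdl3b is shown because this gene had the largest fold of the family with OHT, and Myc with its partner Max binds the E-box CACGTG. The window runs from 250 bases before to 50 bases after the RefSeq start (GRCm38.p6, chr4:132757122-132757421, minus strand), and capitals mark the E-box, whose first base is at position 43, counting the start as 1. The gene itself spans chr4:132732966-132757252 on that strand. Neither GGAATG nor its reverse complement CATTCC, the core of the TEAD motif, was found in it.
Smpdl3b: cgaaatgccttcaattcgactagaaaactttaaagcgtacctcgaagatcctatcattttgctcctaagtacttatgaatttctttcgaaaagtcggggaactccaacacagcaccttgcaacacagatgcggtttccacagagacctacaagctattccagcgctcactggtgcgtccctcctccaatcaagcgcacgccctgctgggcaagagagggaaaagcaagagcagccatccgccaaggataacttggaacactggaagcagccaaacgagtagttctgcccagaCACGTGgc

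Genes whose 3 log2 fold changes against mock lay closest to those of Smpdl3b were sought among 11402 other genes with a mean normalized count of 20 or more. Reep6, a protein of the endoplasmic reticulum membrane, was closest (Euclidean distance 0.453) with 2.55 ± 0.22 for OHT, 0.50 ± 0.24 for dox and 2.97 ± 0.22 for both. Dgat2, the enzyme of the last step of triglyceride synthesis, followed (distance 0.455) with 2.54 ± 0.21, 0.70 ± 0.23 and 2.85 ± 0.21. Of the 5 closest, 4 are named here, and the others of these were 2010204K13Rik and Nav3, a protein of microtubule ends, at distances of 0.484 and 0.544. The likeness rests on 4 group means and has no test.

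Smpdl3a, the secreted paralog of Smpdl3b, was hardly detected in any group. Its authors' means over the 6 libraries were 0.634 in the comparison of OHT with mock, 1.36 for dox and 0.328 for OHT+dox. Because these means are exact sums of whole reads divided by the size factors, the reads could be solved for and had a single solution. Smpdl3a had 0, 1 and 1 reads in the OHT libraries, 1, 2 and 3 in the dox libraries and 0 in each OHT+dox library, against 0, 1 and 1 in the mock libraries. The 0 reads of the OHT+dox group allow up to 3 reads over the group, counting error only, and no fold is given. At this depth a change of Smpdl3a was not detectable.

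The remaining sphingomyelinases differed little between groups. Smpd1 averaged 1038 ± 43.0 normalized counts in OHT cells, 1127 ± 46.4 in dox cells and 1007 ± 41.9 in OHT+dox cells, against 1175 ± 48.2 in mock cells. Smpd2, a neutral sphingomyelinase, was at 548 ± 28.3, 477 ± 25.1 and 474 ± 24.9 in the same order, against 560 ± 28.8 in mock cells. Smpd4, a neutral sphingomyelinase of the endoplasmic reticulum and nuclear envelope, was at 731 ± 37.6, 632 ± 32.9 and 742 ± 38.1, against 658 ± 34.1 in mock cells. The largest log2 fold change against mock of these genes was −0.24 ± 0.11, for Smpd2 with both treatments. Between treated groups none of them passed the Wald test. For Smpd4 the difference of OHT+dox from dox was 0.23 ± 0.11 (adjusted p = 0.104), and for Smpd2 that of OHT+dox from OHT was −0.21 ± 0.11 (adjusted p = 0.299). Exons of Mical1, on the opposite strand, cover 20.3% of the exon bases of Smpd2, and the library kit does not keep the strand.

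The sphingomyelin synthases were both lower with OHT and with OHT+dox than with dox alone. Sgms2, the synthase of the plasma membrane, averaged 317 ± 19.9 normalized counts in OHT cells, 498 ± 29.8 in dox cells and 349 ± 21.7 in OHT+dox cells, against 480 ± 28.8 in mock cells. The dox and mock groups were thus alike to within 1 standard error, and both groups with OHT lay below them. Relative to mock, Sgms2 thus differed by −0.60 ± 0.13 (log2) in OHT cells, 0.05 ± 0.12 in dox cells and −0.46 ± 0.12 in OHT+dox cells. Compared directly, Sgms2 was lower with OHT than with dox (−0.65 ± 0.13, adjusted p = 5.34e-06) and lower with OHT+dox than with dox (−0.51 ± 0.12, adjusted p = 0.000519). With dox near mock, both contrasts largely repeat the folds of Sgms2 against mock. OHT+dox against OHT gave 0.14 ± 0.13 for Sgms2 (95% interval −0.11 to 0.39, adjusted p = 0.662).

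Sgms1, the synthase of the Golgi, averaged 773 ± 34.9 in OHT cells, 980 ± 43.3 in dox cells and 806 ± 36.3 in OHT+dox cells, against 895 ± 39.9 in mock cells. Dox cells stood above mock and both groups with OHT below it, with log2 differences of −0.21 ± 0.09 in OHT cells, 0.13 ± 0.09 in dox cells and −0.15 ± 0.09 in OHT+dox cells. None of these differences of Sgms1 from mock passed an adjusted p under 0.05. Sgms1 was lower with OHT than with dox (−0.34 ± 0.09, adjusted p = 0.00202) and with OHT+dox than with dox (−0.28 ± 0.09, adjusted p = 0.0128). Both contrasts in part repeat the folds of Sgms1 against mock. Per kilobase of exon, the ratio of Sgms1 to Sgms2 came to 1.44 ± 0.11 in OHT cells, 1.16 ± 0.09 in dox cells and 1.36 ± 0.10 in OHT+dox cells, against 1.10 ± 0.08 in mock cells. Whether this ratio differed between groups was not tested.

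Of the sphingosine kinases, Sphk1 was lower with OHT and with OHT+dox than with dox alone, and Sphk2 passed no test between treated groups. Sphk1, the mainly cytosolic kinase, averaged 453 ± 22.5 normalized counts in OHT cells, 726 ± 34.0 in dox cells and 519 ± 25.3 in OHT+dox cells, against 718 ± 33.7 in mock cells. In log2 units, Sphk1 differed from mock by −0.66 ± 0.10 in OHT cells, 0.02 ± 0.10 in dox cells and −0.47 ± 0.10 in OHT+dox cells. Directly compared, Sphk1 was lower with OHT than with dox (−0.68 ± 0.10, adjusted p = 3.81e-10) and lower with OHT+dox than with dox (−0.48 ± 0.10, adjusted p = 1.68e-05). Since dox lay near mock, these contrasts largely repeat the folds of Sphk1 against mock. OHT+dox stood 0.20 ± 0.10 above OHT, which did not pass (95% interval from just below 0 to 0.39, adjusted p = 0.309).

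Sphk2, the kinase found also in the nucleus and mitochondria, averaged 416 ± 24.0 in OHT cells, 351 ± 20.7 in dox cells and 381 ± 22.3 in OHT+dox cells, against 420 ± 24.2 in mock cells. The largest of its folds against mock was −0.26 ± 0.12, with dox, and OHT against dox gave 0.24 ± 0.12 (adjusted p = 0.166). The p of Sphk2 with OHT was too near 1 to give a standard error, and its spread was taken from the other comparisons. Exons of Dbp and Rpl18, on the other strand, cover 13.0% and 8.97% of the exon bases of Sphk2. Per kilobase, the ratio of Sphk1 to Sphk2 came to 0.950 ± 0.072 in OHT cells, 1.80 ± 0.14 in dox cells and 1.19 ± 0.09 in OHT+dox cells, against 1.49 ± 0.11 in mock cells, so that Sphk1 was the higher kinase in every group except OHT, where the 2 were within their error.

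Sgpl1, the sphingosine 1-phosphate lyase, had the highest normalized count of the family. Sgpl1 averaged 1840 ± 65.8 in OHT cells, 2316 ± 81.6 in dox cells and 1982 ± 70.5 in OHT+dox cells, against 2188 ± 77.3 in mock cells. The lyase differed from mock by −0.25 ± 0.07 (log2) in OHT cells, 0.08 ± 0.07 in dox cells and −0.14 ± 0.07 in OHT+dox cells. It was lower with OHT than with dox (−0.33 ± 0.07, adjusted p = 9.63e-05) and with OHT+dox than with dox (−0.22 ± 0.07, adjusted p = 0.0126). Both contrasts in part repeat the folds of Sgpl1 against mock and are no separate support. OHT+dox against OHT gave 0.11 ± 0.07 (adjusted p = 0.507). Per kilobase, Sgpl1 and Smpd1 were at 356 ± 12.6 and 352 ± 14.4 in mock cells, within their error, and were the most abundant genes of the family there.

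**Figure D2:**
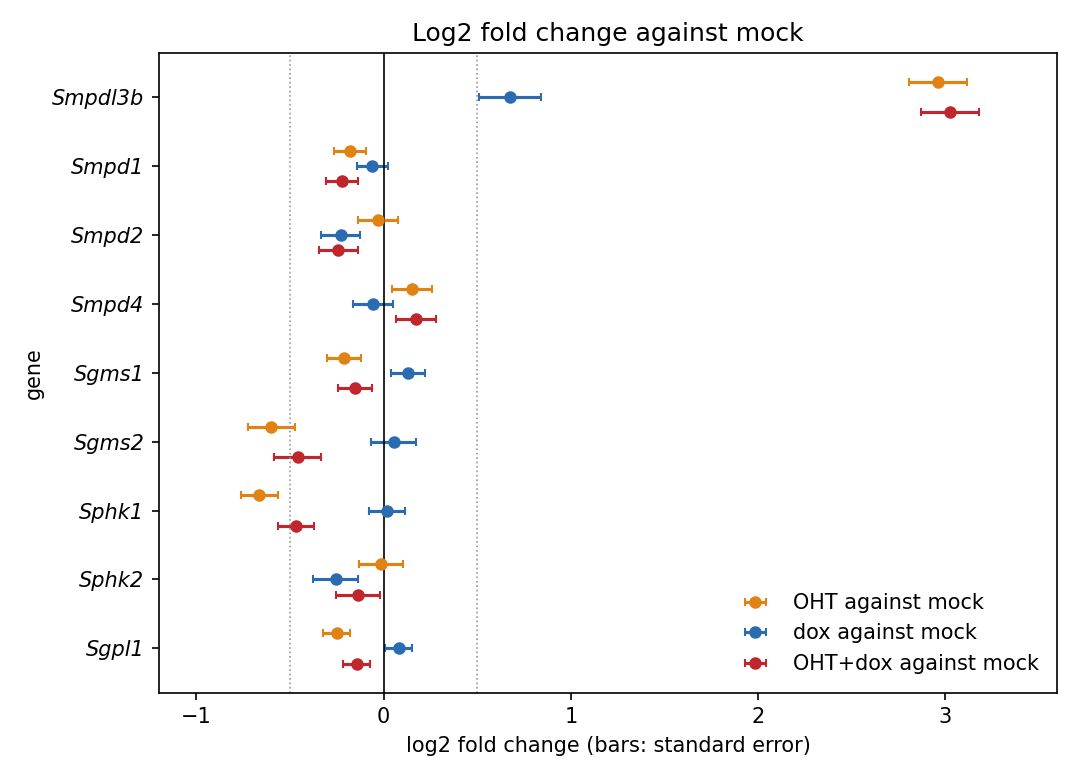
Log2 fold change against mock (x axis, bars of 1 standard error, dotted lines at −0.5 and 0.5) of each gene (y axis) with OHT, dox and OHT+dox. Smpdl3b stands at 2.96, 0.67 and 3.02, and Sgms2 and Sphk1 lie below 0 with OHT (−0.60 and −0.66) and with both, but near 0 with dox.

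Counted over the family, the contrasts with mock that named the genes gave few calls. A gene counted as differentially expressed (a DEG) when its log2 fold change exceeded 0.5 in size and its adjusted p was below 0.05, the cutoffs of the study. With OHT, Smpdl3b was an up-regulated DEG and Sgms2 and Sphk1 were down-regulated DEGs, 3 of the 9 genes, where 6.41% of all genes tested were up-regulated and 3.01% down-regulated DEGs. With dox, Smpdl3b was the 1 DEG, where 2.42% of all genes were DEGs upward and 1.57% downward. In OHT+dox cells, Smpdl3b was again the 1 DEG, where the shares of all genes were 10.9% and 9.82%. Sgms2, Sphk1 and Smpd1 (−0.22 ± 0.08) also passed the adjusted p with both, at folds below the cutoff, as 19.3% of all genes did in that direction irrespective of fold. With OHT, Sgpl1 (−0.25 ± 0.07) passed below the cutoff, beside 9.02% of all genes in that direction. Nothing is read from these counts, since the same contrasts named the genes. The median log2 fold change of the 9 genes stood at −0.18 in OHT cells, 0.02 in dox cells and −0.15 in OHT+dox cells, beside −0.01 over all genes in each contrast. These contrasts share their mock libraries.

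Between treated groups, Smpdl3b, which was higher in both contrasts with dox, is left out of their counts. In OHT against dox, 4 of the other genes were lower (Sgms1, Sgms2, Sphk1 and Sgpl1) and 0 were higher at an adjusted p under 0.05 by the Wald test, against 7.56% of all genes lower and 8.75% higher. In OHT+dox against dox, the same 4 genes were lower and 0 were higher, against 9.02% and 12.7% of all genes. In OHT+dox against OHT, 0 of the 9 genes passed the Wald test, where 2.63% of all genes were higher and 2.2% lower, and 1 (Smpd2) had an unadjusted p under 0.05. The contrasts with dox share the dox libraries, and the treated libraries are those of the contrasts with mock. Nothing is read from these counts either, since they rest on the group means that named the genes.

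**Figure D3:**
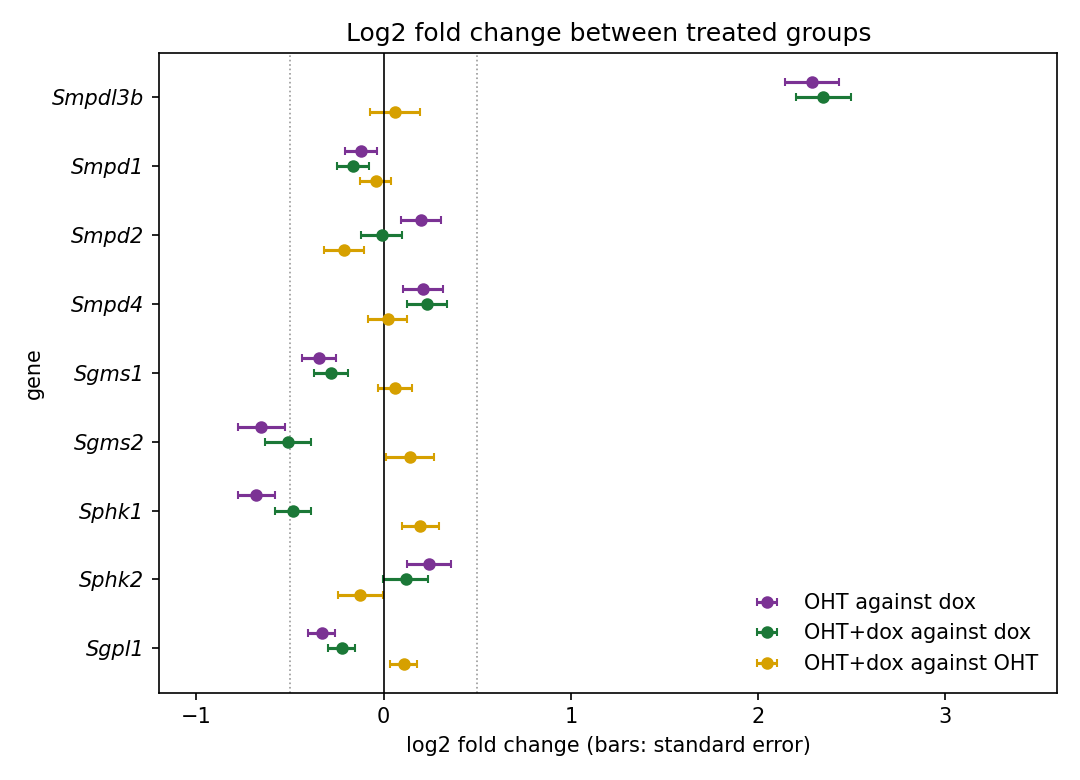
Log2 fold change between treated groups (x axis, bars of 1 standard error, dotted lines at −0.5 and 0.5) of each gene (y axis): OHT against dox, OHT+dox against dox and OHT+dox against OHT. Sgms2, Sphk1, Sgms1 and Sgpl1 lie below 0 in both contrasts with dox, and OHT+dox against OHT lies between −0.21 and 0.20 for all 9 genes.

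An E-box was found also in genes that were lower with OHT. RefSeq promoter windows (GRCm38.p6) were matched for 9 of the 10 genes, 22 windows in all since several genes have more than 1 start. CACGTG, which reads the same on both strands, was found in 5 of these windows and 4 genes: Smpdl3b, Smpd2, Sphk1 and Sgms2. The Sphk1 windows with an E-box overlap and hold the same site, at −95 and −102 from their starts, so this site is counted more than once. Over all 32851 windows 7.15% held it. GGAATG or CATTCC was found in 4 windows, of Sphk1, Sgms1 and Sgms2, against 14.7% of all windows. The windows of Sphk1 and Sgms2 with an E-box are shown because these genes were lower with OHT, with capitals for the E-box, which begins at position −95 from this start of Sphk1 (chr11:116532194-116532493, plus strand) and at position −117 from this start of Sgms2 (chr3:131488993-131489292, minus strand). Both genes also have windows without it. A match is a stretch of letters, and binding was not measured here.
Sphk1: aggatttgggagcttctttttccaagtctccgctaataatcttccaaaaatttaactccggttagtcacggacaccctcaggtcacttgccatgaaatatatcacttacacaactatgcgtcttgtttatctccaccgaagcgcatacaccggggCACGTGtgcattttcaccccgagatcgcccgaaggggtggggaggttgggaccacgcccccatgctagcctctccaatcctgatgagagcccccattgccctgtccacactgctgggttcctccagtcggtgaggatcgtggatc
Sgms2: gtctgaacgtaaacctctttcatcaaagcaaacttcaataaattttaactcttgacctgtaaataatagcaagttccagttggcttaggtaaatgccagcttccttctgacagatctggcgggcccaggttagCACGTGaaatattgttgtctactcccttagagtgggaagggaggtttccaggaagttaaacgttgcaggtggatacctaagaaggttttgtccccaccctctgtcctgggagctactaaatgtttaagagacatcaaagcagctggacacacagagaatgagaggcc

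The rest of the sphingolipid pathway was surveyed with 61 further genes chosen by function, of which 60 were in the table and 49 could be tested. With OHT, 5 rose and 4 fell at an adjusted p under 0.05, with dox 3 rose and 2 fell, and with both 9 rose and 11 fell. All genes tested rose and fell in 12.8% and 9.02% of cases with OHT, 6.26% and 4.57% with dox, and 20.8% and 19.3% with both, and the pathway counts read against these shares are no result about the list. Its median log2 fold changes were −0.07, 0.02 and 0.02, beside −0.01 for all genes in each contrast.

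De novo ceramide synthesis held 6 of the 9 genes that rose with OHT+dox and none that fell, of 13 tested, with a median of 0.15. Of all genes tested, 20.8% rose and 19.3% fell with OHT+dox. With OHT, 4 of the 13 rose, where 12.8% of all genes did. They were Cers1 and, named after their values were seen, Sptssa (0.29 ± 0.11), Kdsr (0.26 ± 0.10) and Degs1 (0.23 ± 0.08). These last are a subunit of serine palmitoyltransferase, the ketosphinganine reductase and the dihydroceramide desaturase, in that order. Sptlc1 and Sptlc2, of the same transferase, did not pass with OHT (0.01 ± 0.10 and −0.11 ± 0.10) or with OHT+dox (0.10 ± 0.10 and 0.07 ± 0.10). Cers1, a ceramide synthase, averaged 402 normalized counts in OHT cells, 240 in dox cells and 377 in OHT+dox cells, against 282 in mock cells, or 0.51 ± 0.13 (OHT) and 0.42 ± 0.13 (OHT+dox) above mock in log2 units. Cers1 was higher with OHT than with dox (0.75 ± 0.13, adjusted p = 5.67e-07) and with OHT+dox than with dox (0.65 ± 0.13, adjusted p = 1.81e-05). Cers1 shares its transcription unit with Gdf1, so reads of the pair may not be told apart. Cers6, another ceramide synthase and also named after its values were seen, followed dox, at 0.45 ± 0.10 with dox and 0.43 ± 0.10 with both, and was higher with OHT+dox than with OHT (0.46 ± 0.10, adjusted p = 0.000347).

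Of 12 tested genes of lysosomal glycosphingolipid breakdown, 5 fell with OHT+dox, 0 rose and the others did not pass, with a median of −0.23. Ceramide transport and ceramidases had the same median, with 1 gene higher and 2 lower of 6. Over all genes tested, 20.8% were higher and 19.3% lower with OHT+dox, and no function group was tested as a set. Gba2, a glucosylceramidase that itself acts outside the lysosome, averaged 290 normalized counts in OHT+dox cells, against 416 in mock cells (−0.52 ± 0.12). Its level with both treatments was below that with dox alone (−0.40 ± 0.12, adjusted p = 0.00779). Of the ceramidases, Asah2, the neutral form, fell with both (−0.54 ± 0.14), and Acer3, an alkaline form, rose with dox (0.38 ± 0.13) and with both (0.51 ± 0.13). Ugcg, which makes glucosylceramide from ceramide, rose with dox (0.41 ± 0.11) and was at −0.22 ± 0.11 with OHT. Ugcg was lower with OHT than with dox (−0.63 ± 0.11, adjusted p = 1.59e-07) and higher with OHT+dox than with OHT (0.40 ± 0.11, adjusted p = 0.00712).

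Among the other genes of sphingosine 1-phosphate, 1 rose and 1 fell with OHT, 0 rose and 1 fell with dox, and 1 rose and 2 fell with OHT+dox, of 10 tested. Of all genes tested, 12.8% rose and 9.02% fell with OHT, 6.26% and 4.57% with dox, and 20.8% and 19.3% with both. The counts lie near those shares and are no result about the group. Sgpp1, a phosphatase that returns sphingosine 1-phosphate to sphingosine, averaged 1202 normalized counts in OHT cells, 1069 in dox cells and 1339 in OHT+dox cells, against 923 in mock cells. It rose with OHT (0.38 ± 0.09) and with both (0.54 ± 0.09), and its 0.21 ± 0.09 with dox did not pass. S1pr1, a receptor, averaged 460 in OHT cells, 339 in dox cells and 359 in OHT+dox cells, against 517 in mock cells. It fell with dox (−0.61 ± 0.12) and with both (−0.52 ± 0.12), and its −0.17 ± 0.12 with OHT did not pass. S1pr1 was higher with OHT than with dox (0.44 ± 0.12, adjusted p = 0.00452).

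**Figure D4:**
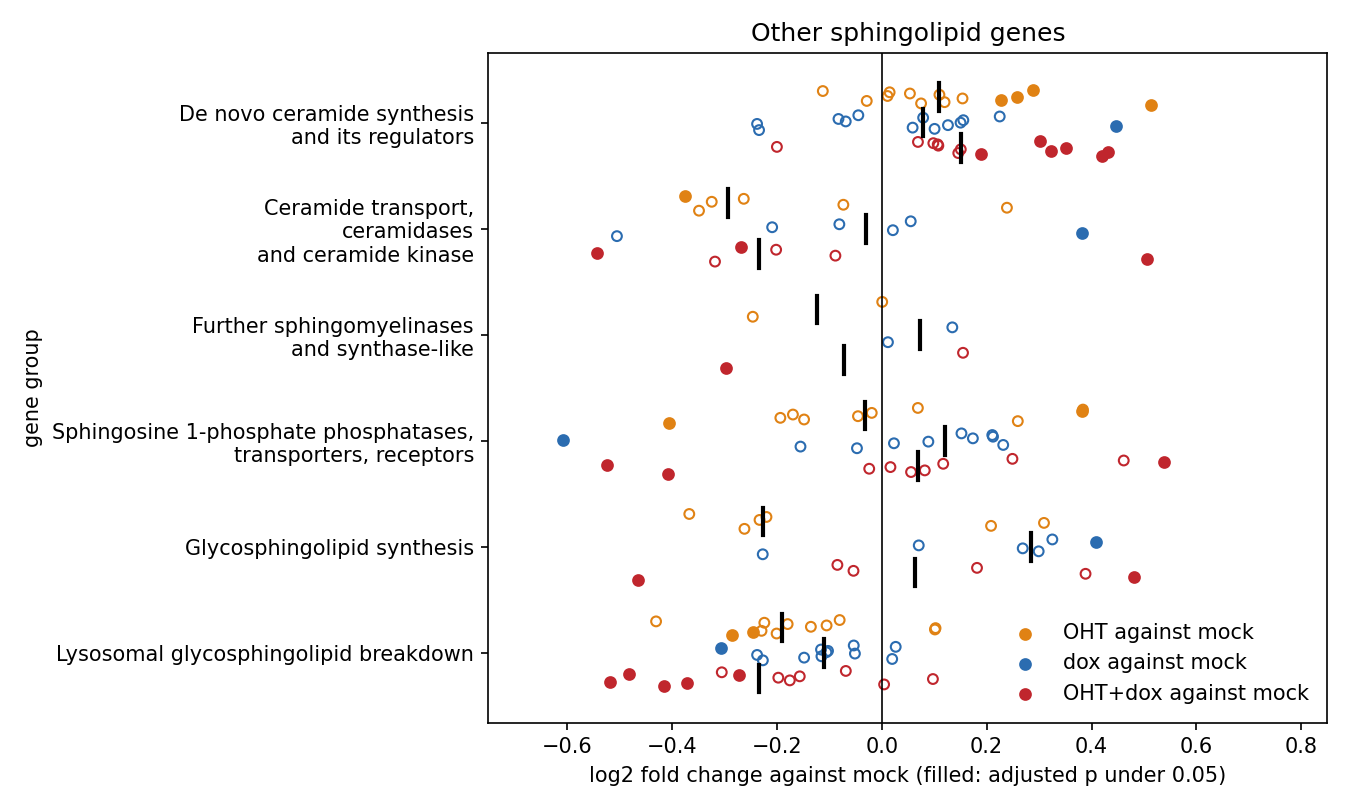
Log2 fold change against mock (x axis) of 49 other sphingolipid genes in 6 groups by function (y axis) with OHT, dox and OHT+dox, with filled points at an adjusted p under 0.05 and black lines at the medians. With OHT+dox, the 6 filled points of de novo ceramide synthesis lie above 0 and the 5 of lysosomal breakdown below 0. Of all genes tested, 20.8% rose and 19.3% fell with OHT+dox.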

How the data were processed

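The deposited table was made by the authors from 12 libraries. Per the labels, reads were aligned with TopHat2 2.0.8 to mm9, counted per gene with featureCounts 1.4.5-p1 and compared with DESeq2. The sources used here give neither the annotation nor the version of the authors' DESeq2. The deposited mean signal is the authors' mean of size-factor normalized counts over the 6 libraries of a comparison with mock. The deposited log2 fold change is the authors' value on the log2 scale, shrunken toward 0. The deposited p-value is the authors' Benjamini-Hochberg adjusted one. These columns hold the authors' comparisons, which were used only as the source of the group means, and their Y or N calls were not used.

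Undoing the adjustment gave unadjusted p-values, and each standard error was the fold over its z-value. The prior standard deviation of the authors' DESeq2 fits was estimated as 2 times a high quantile of such standard errors. The estimate was 0.446 (OHT), 0.337 (dox) and 0.619 (OHT+dox), and the shrinkage was undone with it. Each comparison was then split into treated and mock means. The mock means of the OHT and OHT+dox comparisons then lay a median of 0.000719 apart in log2 units after a shift of 0.0306, and those of dox and OHT+dox 0.000230 after 0.00189. Contrasts were tested by two-sided Wald tests with the mean dispersion of the comparisons (the study fitted pairs of groups) and adjusted over 12257 genes. The count test planned for values per library was not run. The 4 rows with a repeated symbol were left out. The script was tested on simulated data. Exon lengths and overlaps came from GENCODE M21 (GRCm38), and Python 3.11.15 with scipy 1.17.1 was used. The genes and lists were chosen with earlier results of these data known. Of the gene lists, genes called in any contrast were named, up to 3 per function group, besides all 10 chosen genes. The genes most like Smpdl3b were the 5 closest, of which 1 is not reported here.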

Additional observations from a re-analysis of the deposited data

How the results depend on the processing

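The table used here gives summaries over libraries, so leaving out a replicate, edgeR and DESeq2 were not run. No paired analysis was possible because the columns carry no replicate number. Of the values of the family, 1 changed sign under an alternative, Sphk1 with dox against mock (0.02 as reported and −0.0038 with groups scaled to equal sums, neither past the threshold). No value crossed the threshold with the deposited folds (30 values), each comparison's own dispersion (84) or a minimum mean of 10 (84). Nor did any with a prior 10% higher or lower (66 each) or the mock mean of the OHT+dox comparison (36). The deposited fold of Smpdl3b with OHT was 2.67, more than 1 standard error below the reported 2.96 ± 0.15. With dox and with both, its deposited folds were 0.52 and 2.88, against 0.67 ± 0.17 and 3.02 ± 0.15 as reported. The other folds and the group means stayed within 1 standard error of those reported under these alternatives. With standard errors scaled by 0.648 to the spread of the interaction, 1 gene of the family passed the interaction, Smpdl3b (−0.61), whose noted OHT fold enters that value, and 16 values of single genes, this one included, gained significance, among them Sphk1 (0.20, adjusted p = 0.0156) and Smpd2 (−0.21, adjusted p = 0.0142) in OHT+dox against OHT. The factor was taken from the interaction values of these same data and applied to every contrast. Nothing is read from values that passed only under it. With groups scaled to equal sums, Smpd2 passed with OHT+dox against mock (−0.26, adjusted p = 0.0368), and 1 pathway gene in place of 2 was called up and 4 in place of 3 down with OHT+dox. Without a fold minimum, chosen after seeing the data for the family, 4 genes of the family passed with OHT against mock, 4 with OHT+dox against mock, 5 in OHT+dox against dox and 5 in OHT against dox, Smpdl3b among them each time. For the pathway list, 5 were then higher and 4 lower with OHT, 3 and 2 with dox, 9 and 11 with both, 2 higher in OHT+dox against OHT, 3 and 4 in OHT+dox against dox, and 3 and 6 in OHT against dox. Depth limits Smpdl3a, with at most 3 reads in a library.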
